A study of Mus musculus with 2 samples.

Results

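Of 17840 genes, 10 were followed here. These were the keratins Krt7, Krt8, Krt18, Krt19, Krt20, Krt23 and Krt80 and the small proline-rich protein genes Sprr1a, Sprr2a2 and Sprr2a3. They were chosen by gene symbol, and all 10 had 1 row in each of the 2 tables. Messenger RNA was compared between 1 library from mice with the genotype Srcap flox/flox; Lgr5-Cre+, given tamoxifen so that Cre deleted Srcap, and 1 library from Srcap+/+; Lgr5-Cre+ mice. The protocol text names tamoxifen for the knockout mice and is not explicit about the wild-type mice. Both groups carried the Cre, which is driven from Lgr5 and so acts in intestinal stem cells, and both libraries came from dissociated crypt cells sorted by GFP intensity without culture. The labels used here do not state age, sex, how many mice were pooled or how many cells were sorted.

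Keratins are intermediate filament proteins that assemble only as pairs, a type I with a type II chain, and give epithelial cells mechanical strength. The simple epithelium of the gut uses Krt8 as its main type II chain, with Krt18, Krt19 and Krt20 as type I partners, and Krt20 marks differentiated cells of the upper crypt and villus. Small proline-rich proteins are cross-linked into the cornified envelope of the skin, and some of them, the Sprr2a copies among them, are also induced in gut epithelium by microbes and injury.

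With 1 library per genotype there was no replicate spread and no test, and every difference describes this pair of libraries. Values are FPKM (fragments per kilobase of transcript, scaled to the mapped fragments of the library), in which genes of unequal length can be compared. The log2 ratio of knockout to wild type was taken after 1 FPKM was added to each value. A gene counts as higher or lower where this ratio reached 2-fold and 1 of the values reached 1 FPKM. By that rule, 2.61% of 11784 genes were higher and 0.416% were lower. The median log2 ratio of these genes was 0.02, and 53.4% of them were positive. Srcap itself was at 11.3 FPKM in the knockout library and 20.4 FPKM in the wild-type library, lower but short of 2-fold. The value covers all exons of Srcap, including any outside the deleted part. The steps between the lowest FPKM values put 1 read at about 0.0584 FPKM for a transcript of 1 kb in both libraries. A read on a longer transcript is worth less FPKM. This makes about 17100000 reads assigned to genes in each library.

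The coding sequences of the Sprr genes are shown because they show what the family name stands for and how alike the copies are. They run 5′ to 3′ without the stop codon, from GENCODE M21 transcripts (mm10), with the first 300 of 432 bases given for Sprr1a, and capitals mark codons of the form CCN, which encode proline.
Sprr1a: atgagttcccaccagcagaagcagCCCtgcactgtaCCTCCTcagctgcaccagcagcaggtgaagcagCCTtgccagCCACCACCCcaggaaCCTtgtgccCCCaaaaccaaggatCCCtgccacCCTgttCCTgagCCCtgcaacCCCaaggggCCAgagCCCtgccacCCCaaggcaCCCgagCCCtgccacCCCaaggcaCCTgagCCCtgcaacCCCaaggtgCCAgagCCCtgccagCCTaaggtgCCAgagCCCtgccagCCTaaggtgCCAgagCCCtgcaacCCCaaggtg
Sprr2a2: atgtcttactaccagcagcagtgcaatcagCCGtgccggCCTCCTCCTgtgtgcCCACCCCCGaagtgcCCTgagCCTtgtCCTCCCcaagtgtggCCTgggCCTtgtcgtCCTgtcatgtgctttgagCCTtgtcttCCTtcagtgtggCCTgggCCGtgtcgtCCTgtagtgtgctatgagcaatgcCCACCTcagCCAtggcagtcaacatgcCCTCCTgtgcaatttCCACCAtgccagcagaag
Sprr2a3: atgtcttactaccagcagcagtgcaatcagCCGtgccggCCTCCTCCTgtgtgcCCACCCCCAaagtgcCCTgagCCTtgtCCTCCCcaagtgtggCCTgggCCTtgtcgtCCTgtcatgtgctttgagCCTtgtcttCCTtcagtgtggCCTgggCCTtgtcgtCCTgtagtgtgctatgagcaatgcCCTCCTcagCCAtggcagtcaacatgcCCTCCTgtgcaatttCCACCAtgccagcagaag

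In Sprr1a, 46 of 144 codons (31.9%) were of the form CCN, and in Sprr2a2 and in Sprr2a3 26 of 83 (31.3%). In the 7 keratin genes the share was 0.928% to 2.65%. Sprr2a2 and Sprr2a3 differed at 3 coding bases, G63A, G159T and A192T, counted from 1 at the start codon with the Sprr2a2 base first. All of these lie at the last place of a CCN codon. The coding sequence of another copy, Sprr2a1, which is not among the 10 genes, differed from that of Sprr2a2 at 0 bases.

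Of the 10 genes, 4 were higher by this rule in the knockout library, which is to be read against the 2.61% of all genes, and 0 were lower, against 0.416%. The 4 were all 3 Sprr genes and 1 of 7 keratins, Krt20. The log2 ratio was positive for 9 of the 10 and negative for 1, Krt23, and their median was 0.49. One gene, Krt80, was below 1 FPKM in both libraries and could not be called. The direction of each of the 10 genes was the same under the other scalings of the libraries. These changed the library ratio by factors of only 0.963 to 1.06, too small to reverse any of the 10.

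**Figure D1:**
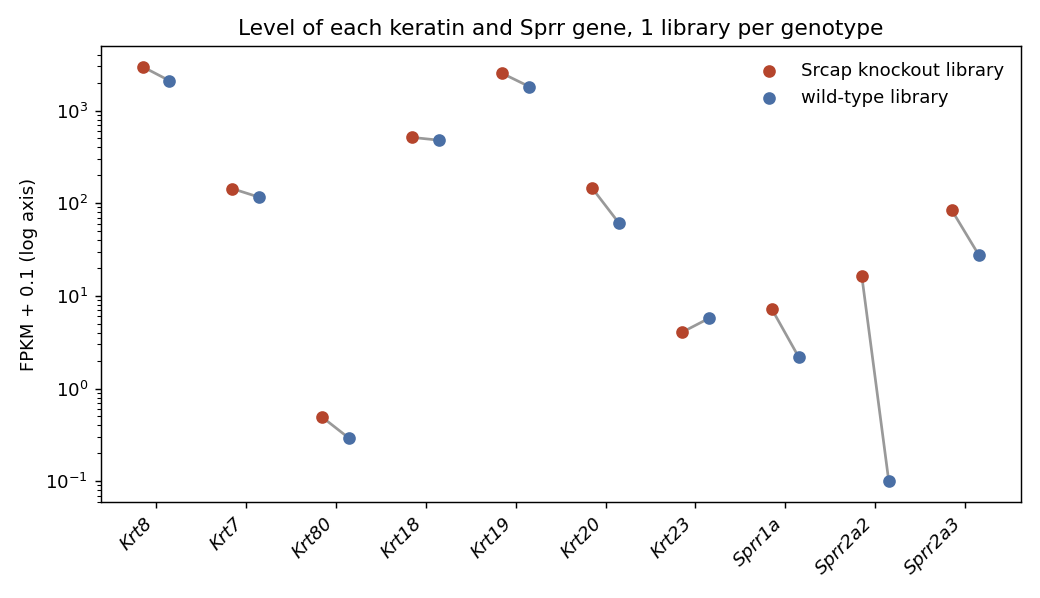
Level of the 10 genes as FPKM + 0.1 on a log axis, with the Srcap knockout library on the left and the wild-type library on the right of each pair; each point is 1 library and there are no error bars. The lines of Krt20, Sprr1a, Sprr2a2 and Sprr2a3 fall steeply from knockout to wild type, those of Krt8, Krt7, Krt18 and Krt19 slightly, and that of Krt23 runs the other way.

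Krt8, the main type II keratin of gut epithelium (Entrez 16691, chromosome 15, 101996711 to 102004342, minus strand, 9 exons, mm10), was the most abundant of the 10 genes. It was at 2975 FPKM in the knockout library and 2097 FPKM in the wild-type library. It ranked 15 among all 17840 genes in the knockout library and 50 in the wild-type library. The knockout level was 1.42-fold the wild-type level, with a log2 ratio of 0.50, which is inside the 2-fold limit. That ratio was above the 95th percentile of 0.43 over the 5766 genes that reached 10 FPKM in both. Among keratin genes named by Krt and a number alone, Krt8 and Krt19 held 87.0% of the FPKM in the knockout library. In the wild-type library they held 85.4%. Part of Krt8 is shared with a pseudogene. Of its 50-base windows, the length of the reads, 29.7% occur in transcripts of other genes, mostly Krt8-ps.

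Krt7 (Entrez 110310, chromosome 15, 101412403 to 101427806, plus strand) is a type II keratin of ducts and glands. It was at 143 FPKM in the knockout library and 116 FPKM in the wild-type library, with a log2 ratio of 0.31. The ratio of Krt8 to Krt7 within a library was 20.8 in the knockout and 18.1 in the wild type, so Krt8 led the type II transcripts in both.

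Krt80 (Entrez 74127, chromosome 15, 101348315 to 101370162, minus strand) is a type II keratin known from differentiating epithelia. It was at 0.39 FPKM in the knockout library and 0.19 FPKM in the wild-type library. With the annotated coding transcripts of 2811 to 3919 bases, these levels are about 18.8 to 26.2 reads in the knockout library and 9.15 to 12.8 reads in the wild-type library. The ratio without the pseudocount was 2.05, with an approximate counting error of 0.49 to 0.58 on a log2 value of 1.04. The gap in Krt80 thus rests on few reads.

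Among the type I transcripts, Krt19 (Entrez 16669, chromosome 11, 100140810 to 100145926, minus strand, 6 exons) led in both libraries. Krt19 is a short type I keratin that pairs with Krt8 in gut epithelium. It was at 2520 FPKM in the knockout library and 1816 FPKM in the wild-type library, 1.39-fold higher, with a log2 ratio of 0.47. None of its 50-base windows was found in a transcript of another gene (0 of 1527). Krt18 (Entrez 16668, chromosome 15, 102028216 to 102032026, plus strand, 7 exons), the other common partner of Krt8, was at 513 FPKM in the knockout library and 478 FPKM in the wild-type library. Its log2 ratio of 0.10 was the smallest of the 7 keratins in size. Krt18 lies 23.9 kb from Krt8 and is the one type I keratin gene outside the type I cluster of chromosome 11.

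Krt20, the type I keratin of differentiated gut cells (Entrez 66809, chromosome 11, 99428385 to 99438153, minus strand, 8 exons), differed most among the keratins followed here. It was at 146 FPKM in the knockout library and 60.8 FPKM in the wild-type library, 2.40-fold higher, with a log2 ratio of 1.25. No 50-base window of Krt20 occurs in transcripts of other genes, and at its length of 1927 bases the levels are about 4808 and 2005 reads in the knockout and wild-type libraries. Krt23, a type I keratin gene 39.8 kb away on the same strand (Entrez 94179, chromosome 11, 99477973 to 99493120), had the opposite sign. Krt23 was at 3.95 FPKM in the knockout library and 5.63 FPKM in the wild-type library, with a log2 ratio of -0.42. This is about 106 and 151 reads, and the log2 ratio without the pseudocount was -0.51 with an approximate counting error of 0.18.

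The order of the keratins by level was Krt8, Krt19 and Krt18 in both libraries, and then changed. Krt20 and Krt7 came next in the knockout library, at 146 and 143 FPKM, with Krt23 and Krt80 last. In the wild-type library Krt7 stood above Krt20, at 116 and 60.8 FPKM, with Krt23 and Krt80 again last. Krt20 and Krt7 were close in the knockout library, and whether their order there would hold in other mice is unknown.

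The summed messenger RNA of type I and of type II genes was near balance in both libraries, although both sums were higher in the knockout. Protein was not measured. The 4 type I genes summed to 3183 FPKM in the knockout library and 2361 FPKM in the wild-type library. The 3 type II genes summed to 3119 FPKM in the knockout library and 2213 FPKM in the wild-type library. The ratio of type I to type II was therefore 1.02 in the knockout library and 1.07 in the wild-type library. All 7 together were at 6302 FPKM in the knockout library and 4574 FPKM in the wild-type library, 1.38-fold higher, and made up 0.994% and 0.680% of all FPKM in the knockout and wild-type libraries.

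The make-up of the type I pool differed as well as its total, which was 1.35-fold higher in the knockout library. Krt20 held 4.58% of the type I sum in the knockout library and 2.57% in the wild-type library. Krt18 held 16.1% in the knockout library and 20.3% in the wild-type library, and Krt19 79.2% in the knockout library and 76.9% in the wild-type library. Within a library, Krt8 stood at 5.80 times Krt18 in the knockout and 4.38 times in the wild type. Krt8 against Krt19 was nearly equal in both, at 1.18 in the knockout and 1.15 in the wild type. These ratios are taken within 1 library, so they do not depend on how the libraries were scaled.

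**Figure D2:**
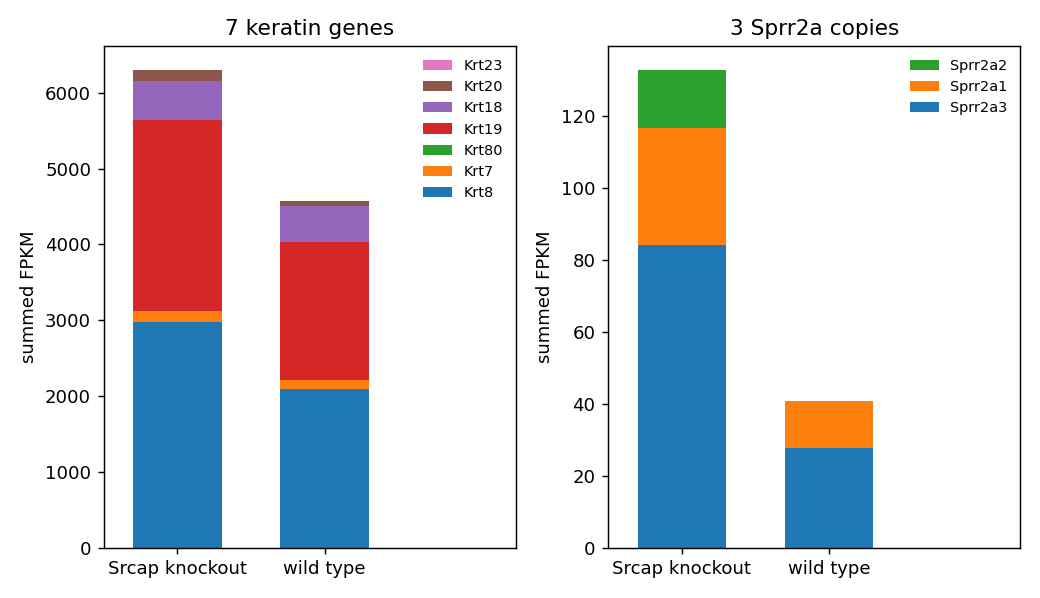
Summed FPKM of the 7 keratin genes (left panel) and of the 3 Sprr2a copies (right panel), knockout bar left of wild-type bar, 1 library each without error bars. Krt8 and Krt19 fill most of both keratin bars, which reach 6302 and 4574 FPKM in the knockout and wild-type libraries, and Sprr2a2 is visible only in the knockout bar.

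The small proline-rich genes were lower in abundance than the main keratins and differed more. Sprr1a, a cornified envelope precursor also known from injured tissue (Entrez 20753, chromosome 3, 92483954 to 92485881, minus strand, 2 exons), was at 7.09 FPKM in the knockout library and 2.07 FPKM in the wild-type library. The knockout level was 3.43-fold the wild-type level, with a log2 ratio of 1.40 after the pseudocount. At its length of 806 bases this is about 97.9 reads in the knockout library and 28.6 reads in the wild-type library, with an approximate counting error of 0.31 on a log2 ratio without the pseudocount of 1.78. None of its 50-base windows occurs in transcripts of other genes (0 of 757). With a pseudocount of 5 FPKM its log2 ratio was 0.77, short of 2-fold.

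Sprr2a3, a copy of the Sprr2a gene (Entrez 100042514, chromosome 3, 92285304 to 92289264, plus strand), was at 84.3 FPKM in the knockout library and 27.6 FPKM in the wild-type library. That is 3.05-fold higher, with a log2 ratio of 1.57. Sprr2a2 (Entrez 100303744, chromosome 3, 92250647 to 92257304, plus strand) was at 16.2 FPKM in the knockout library and was listed at 0 in the wild-type library, so no fold is given. The remaining copy, Sprr2a1, was at 32.5 FPKM in the knockout library and 13.04 FPKM in the wild-type library.

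Reads of 50 bases can rarely tell Sprr2a2 from Sprr2a1, and can tell Sprr2a3 from both only in part. Of the 2818 windows of 50 bases in the longest Sprr2a2 transcript, 96.5% occur in transcripts of other genes, and all of these occur in Sprr2a1. For Sprr2a1 the share is 96.3% and for Sprr2a3 it is 61.1%. In the knockout library the Sprr2a1 value was 2.0 times the Sprr2a2 value. How much of the Sprr2a2 difference comes from the way reads were divided between copies was not tested. Added together, the 3 copies were at 133 FPKM in the knockout library and 40.7 FPKM in the wild-type library, 3.27-fold higher, with a log2 ratio of 1.68 after the pseudocount. Sprr2a3 held 63.4% of this sum in the knockout library and 67.9% in the wild-type library. The sum does not depend on the division between these 3 copies, except through the transcript length used for each. Each copy shares 50-base windows with 8 other genes, so division with genes outside the 3 could still change the sum.

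**Figure D3:**
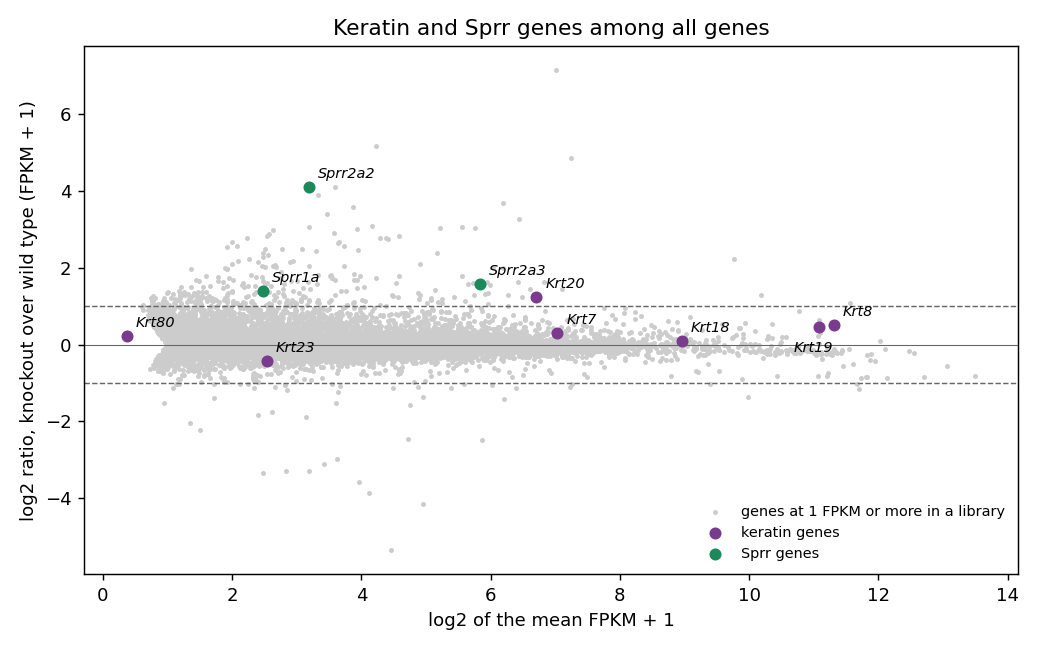
Log2 ratio of knockout to wild type after adding 1 FPKM, against the log2 of the mean FPKM + 1; grey points are the 11784 genes that reached 1 FPKM in a library and dashed lines mark 2-fold. Krt20, Sprr1a, Sprr2a2 and Sprr2a3 lie above the upper line, and the other keratins lie between the lines.

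Most other genes of both families were below 1 FPKM in both libraries, with Krt14 and Sprr2a1 among the exceptions. Keratin rows were counted and summed here only where the symbol is Krt and a number, which leaves out symbols ending in a letter, such as Krt6a. Of 34 further keratin rows so named, 7 were at 0 in both libraries. Another 23 were above 0 but below 1 FPKM in both, and 4 reached 1 FPKM in a library. Krt14, a type I keratin of basal cells in stratified epithelia, was at 5.89 FPKM in the knockout library and 0.08 FPKM in the wild-type library, and was the 1 of 34 called higher, while 0 were lower. Of its 50-base windows 14.4% are shared, mostly with Krt16, which was at 0.06 FPKM in the knockout library and listed at 0 in the wild-type library. Krt10 was at 1.62 and 1.53 FPKM, Krt15 at 0.90 and 1.18 FPKM and Krt83 at 1.88 and 1.6 FPKM in the knockout and wild-type libraries. The 7 keratins followed here held 99.8% of the FPKM of the keratin rows so named in the knockout library and 99.9% in the wild-type library. Of 4 further Sprr rows, Sprr2a1 was called higher, Sprr2b was at 0.21 FPKM in the knockout library and listed at 0 in the wild-type library, and Sprr2e and Sprr2h were listed at 0 in both.

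Neighbours on the chromosome ranged from similarly high to silent. Krt8 lies next to Krt18, and Sprr2a2 lies 28.2 kb from Sprr2a1 and 28.0 kb from Sprr2a3, all of them expressed in the knockout library. Krt78, 0.087 kb from Krt8, was at 0.10 FPKM in the knockout library and 0.06 FPKM in the wild-type library. Krt12, 5.79 kb from Krt20, was at 0.19 FPKM in the knockout library and 0.06 FPKM in the wild-type library. Krt14 lies 57.2 kb from Krt19 and Krt15 4.86 kb from it, and their log2 ratios were 2.67 and -0.20 against 0.47 for Krt19. Beyond Krt18, the translation factor gene Eif4b, 41.7 kb away, was at 134 FPKM in the knockout library and 171 FPKM in the wild-type library. On chromosome 3, Sprr2b, Sprr2e and Sprr2h lie between Sprr2a3 and Sprr1a. None of these 3 reached 1 FPKM, while Sprr2a3 and Sprr1a on either side were called higher.

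The promoters of Krt20 and Sprr1a are shown because these are the called genes with a window of their own. They come from RefSeq (GRCm38.p6, which is mm10), cover 250 bases before to 50 bases after the gene start, and are printed 5′ to 3′ on the gene's strand. Capitals mark matches on either strand to the AP-1 letters TGANTCA, the TATA box letters TATAAA, the STAT letters TTCNNNGAA or the GATA factor letters AGATAA.
Krt20, chr11:99438104-99438403, minus strand: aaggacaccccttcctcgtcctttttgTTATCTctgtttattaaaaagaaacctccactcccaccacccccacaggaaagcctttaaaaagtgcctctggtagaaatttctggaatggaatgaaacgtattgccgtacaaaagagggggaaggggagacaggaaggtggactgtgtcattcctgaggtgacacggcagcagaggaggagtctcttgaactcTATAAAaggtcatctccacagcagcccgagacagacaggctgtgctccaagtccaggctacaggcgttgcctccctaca
Sprr1a, chr3:92485832-92486131, minus strand: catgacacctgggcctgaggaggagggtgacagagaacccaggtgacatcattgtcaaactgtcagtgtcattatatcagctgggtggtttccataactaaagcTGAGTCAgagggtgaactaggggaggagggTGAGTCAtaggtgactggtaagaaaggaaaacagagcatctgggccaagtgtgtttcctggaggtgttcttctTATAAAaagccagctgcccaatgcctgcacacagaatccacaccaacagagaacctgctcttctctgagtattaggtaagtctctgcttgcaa

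The Sprr1a window held 2 AP-1 matches, starting at -146 and -116 from the gene start, and a TATA match at -43. The Krt20 window held a TATA match at -29 and a GATA match at -223. Windows were found for 8 of the 10 genes. Of these 8, 1 held the AP-1 letters, 3 the TATA letters (Krt8, Krt20 and Sprr1a), 1 the STAT letters (Sprr2a3) and 2 the GATA letters (Krt8 and Krt20). Over all 32851 RefSeq windows the shares were 7.81% for AP-1, 13.6% for TATA, 8.30% for STAT and 11.2% for GATA. In Krt8 the 2 TATA matches overlap and start at -3 and -1, at the gene start itself. The Sprr2a1 and Sprr2a2 windows differed at 0 bases, and 272 bases of the Sprr2a2 window also end the Sprr2a3 window. The STAT match of Sprr2a3 starts at -249, before those 272 bases, in a stretch that the Sprr2a2 window does not cover. A match of letters is a description only.

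Transcripts of proteins that hold keratin filaments at junctions differed by less than 2-fold. The list of 18 genes held linker, desmosome and keratin-binding genes and also some keratinocyte-associated genes that are not of junctions. Of these 18, 0 were at least 2-fold higher or lower, 16 log2 ratios were positive and 2 negative, and the median was 0.14. Plec, the plectin linker of filaments to other structures, was at 11.9 FPKM in the knockout library and 7.51 FPKM in the wild-type library. The desmosomal plaque gene Dsp was at 26.5 FPKM in the knockout library and 26.0 FPKM in the wild-type library. Sfn, which encodes the 14-3-3 protein sigma that binds keratins, was at 253 FPKM in the knockout library and 198 FPKM in the wild-type library. Fam83h, a regulator of keratin filament organization, was at 23.5 FPKM in the knockout library and 18.7 FPKM in the wild-type library.

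Of 14 other cornified envelope genes with a row, 5 reached 1 FPKM. None of the 5 was called in either direction, all 5 log2 ratios were positive, and their median was 0.14. Loricrin (Lor) was at 0.16 FPKM in both, and the cross-linking enzyme Tgm1 was at 0.35 FPKM in the knockout library and 0.14 FPKM in the wild-type library. Tgm2 was at 92.9 FPKM in the knockout library and 84.5 FPKM in the wild-type library, while Ppl was at 1.91 and 1.22 FPKM and Sbsn at 2.94 and 1.65 FPKM in the knockout and wild-type libraries. Of 13 S100 genes, which share the chromosome region of the Sprr genes, 1 was called higher, S100a6, at 78.8 FPKM in the knockout library and 25.3 FPKM in the wild-type library. Of these 13, 9 reached 1 FPKM, and the log2 ratio of all 9 was positive (median 0.59). The largest of the S100 levels was that of S100a10, at 568 FPKM in the knockout library and 376 FPKM in the wild-type library.

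Of the other intermediate filament genes, Vim, the vimentin of mesenchymal cells, was at 92.3 FPKM in the knockout library and 29.04 FPKM in the wild-type library and was the 1 of 13 called higher, while 0 were lower. Lmna, a nuclear lamin, was at 116 FPKM in the knockout library and 78.3 FPKM in the wild-type library. Prph, the peripherin of neurons, was at 2.60 FPKM in the knockout library and 5.77 FPKM in the wild-type library. Of 19 epithelial transcription factor genes, 1 was called higher, the AP-1 subunit gene Fosl1, at 7.07 FPKM in the knockout library and 2.78 FPKM in the wild-type library, and the median log2 ratio was -0.01. Klf4, a factor of differentiated epithelium, was at 53.5 FPKM in the knockout library and 33.0 FPKM in the wild-type library.

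Markers of some other cell types were higher in the knockout library, and those of others were lower or nearly level. Since these were bulk samples, a different number of cells of a type and a different amount of RNA per cell cannot be told apart. Of 17 enterocyte markers, 6 were called higher and 0 lower, and their sum was 1304 FPKM in the knockout library and 908 FPKM in the wild-type library. Of 10 mesothelial markers with a row, 9 were called higher, and their sum was 96.5 FPKM in the knockout library and 5.63 FPKM in the wild-type library, with 0 of them at 0 in either. Mesothelial cells are known to express Krt7, Krt8, Krt18 and Krt19 as well. Of 9 stromal and endothelial markers, Vim among them, 6 were called higher, with a sum of 284 FPKM in the knockout library and 52.6 FPKM in the wild-type library. Of 10 myeloid markers 8 were called higher, with a sum of 444 FPKM in the knockout library and 183 FPKM in the wild-type library. Of 10 regenerative markers, which include the mesothelial gene Msln and the S100 gene S100a6, 7 were called higher, with a sum of 252 FPKM in the knockout library and 61.2 FPKM in the wild-type library.

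Of 8 goblet cell markers 1 was called higher, Zg16, and 6 log2 ratios were positive and 2 negative. The goblet markers summed to 7745 FPKM in the knockout library and 5371 FPKM in the wild-type library. Of 8 tuft cell markers with a row 0 were called, as were 0 of 8 villus tip markers. Of the 6 tuft markers at 1 FPKM or more, 1 log2 ratio was positive and 5 negative (median -0.37). Of the 7 villus tip markers at that level, 5 were positive and 2 negative (median 0.59). Of 10 genes of type 2 cytokine and IL-22 signalling 1 was called higher, Reg3b. Of 11 stem cell markers 3 were called lower, and their sum was 814 FPKM in the knockout library and 1834 FPKM in the wild-type library. Lgr5, whose GFP reporter guided the sort, was at 2.17 FPKM in the knockout library and 5.9 FPKM in the wild-type library. The 8 Paneth cell markers summed to 22549 FPKM in the knockout library and 38343 FPKM in the wild-type library, with 0 called. Of 15 listed markers of stratified epithelium, 13 had a row, and those other than Krt14 stayed low. Krt5 and Ivl had no row under these symbols, so their levels are unknown. Trp63, the master factor of stratified epithelium, and Dsg1a were listed at 0 in both libraries, Krt4 was at 0.19 FPKM in the knockout library and 0.10 FPKM in the wild-type library, and Krt6a was at 0.05 FPKM in the knockout library and at 0 in the wild-type library. The 5 urothelial markers summed to 38.0 FPKM in the knockout library and 3.40 FPKM in the wild-type library. Of these, 2 were called higher, Upk1b at 10.6 and 1.05 FPKM and Upk3b at 26.1 and 1.27 FPKM in the knockout and wild-type libraries, and both are on the mesothelial list as well. Upk1a was at 1.24 FPKM in the knockout library and 0.74 FPKM in the wild-type library, while Upk2 and Upk3a were listed at 0 in the knockout library and were at 0.13 and 0.21 FPKM in the wild-type library. The 9 pan-epithelial markers had a median log2 ratio within 0.01 of 0, with 0 called. The part of these cell types in the keratin and Sprr differences was not tested.

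**Figure D4:**
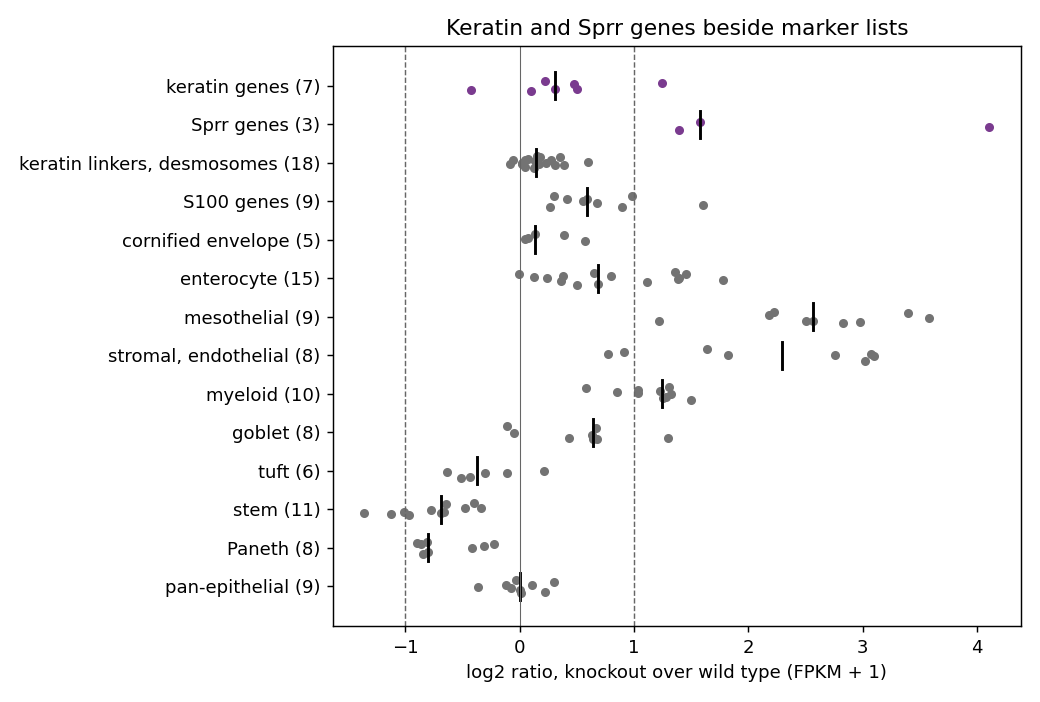
Log2 ratio of knockout to wild type after adding 1 FPKM for the 7 keratin and 3 Sprr genes (purple) and for genes of the other lists at 1 FPKM or more in a library (grey); each point is a gene, the number of genes is in brackets, the black bar is the median and dashed lines mark 2-fold. The mesothelial, stromal and myeloid lists lie to the right with the Sprr genes, the pan-epithelial and junction lists lie closer to 0, and the stem and Paneth lists lie to the left.

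By level in both libraries, the genes nearest to each called gene were found as the smallest distance in log2(FPKM + 1) over the 2 libraries. Nearest to Krt20 were Lgals3, at 143 FPKM in the knockout library and 51.3 FPKM in the wild-type library, Naaladl1 and Lyz2, at distances of 0.24, 0.28 and 0.30. Near to Sprr1a were Cygb and Col18a1, at distances of 0.14 and 0.15. Nearest to Sprr2a3 were Vim, S100a6 and C1qb, at distances of 0.15 to 0.20, and nearest to Sprr2a2 were Chil1, Defa23 and Nkain4, at 0.36 to 0.80. With 2 libraries, such nearness is a description of 2 values.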

How the data were processed

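Gene expression was measured by RNA sequencing in 2 libraries of sorted mouse crypt cells, as single-end reads of 50 bases on a BGISEQ-500 instrument, per the labels' protocols. Each library has 1 table of FPKM values, deposited by the authors with that unit in the header. Per the submitters' processing notes, HISAT, Bowtie2 and RSEM were used, with no version or role stated, on the build mm10. Not given in the sources used here are the annotation, the strand setting and how reads of near-identical copies were divided.

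The tables were joined on gene identifier (17840 rows, of which 17795 matched RefSeq GRCm38.p6). Fold changes are on the log2(FPKM + 1) scale, which understates the change of low genes. Folds printed for single genes are ratios without the pseudocount. Read numbers are approximate. They come from the worth of 1 read, fitted on 81 genes (knockout) and 77 genes (wild type) shorter than 900 bases with 1 transcript in GENCODE M21. Of these values 77.8% in the knockout and 77.9% in the wild type came within 0.2 of a whole number of reads. Errors from them cover counting only. Shared windows were searched over both strands of all GENCODE M21 transcripts.

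The members, lists and rules were chosen with earlier results of these data known. Named were the 10 genes, Srcap, and other Sprr rows and numbered Krt rows at 1 FPKM or more. The rule also names up to 4 genes per list with the largest ratios and the 3 nearest genes. Genes named outside this rule were chosen after their values were seen. A gene that the rule names is not reported here. Those outside it are the chromosome neighbours, Krt4, Krt6a, Krt16, Sprr2b, Sprr2e, Sprr2h, Trp63, Dsg1a, Upk2, Upk3a, Lor, Tgm1, Dsp and S100a10. Krt5 and Ivl are named only because they had no row. Alternatives were pseudocounts of 0.1 and 5 FPKM, 5 scalings, other limits and summed Sprr2a copies. Python 3.11.15, pandas 2.3.3, numpy 2.4.6 and matplotlib 3.10.9 were used.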

Additional observations from a re-analysis of the deposited data

How the results depend on the processing

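Of the 10 genes, 4 were called higher. The number was also 4 under the scalings, with a pseudocount of 0.1 FPKM and without the filter on low values. None was called lower under any setting tried. The scalings changed the library ratio by factors of only 0.963 to 1.06 (1.00006 for that to pan-epithelial genes). Such factors were too small to move any of the 10 genes across the 2-fold limit. Of 72 values recomputed for the 10 genes under other settings, 71 kept their direction and side of the 2-fold limit. Among these 71 is the log2 ratio of the summed Sprr2a copies, 1.68, entered for both Sprr2a2 and Sprr2a3 although it is not a single gene. The remaining 1, Sprr1a with a pseudocount of 5 FPKM, fell to 0.77. The number of the 10 genes called higher was 3 with that pseudocount, 3 with a minimum of 10 FPKM and 1 with a 3-fold limit. The log2 ratio of the 7 keratins summed was 0.41 to 0.55 and that of the 3 Sprr genes summed 1.70 to 1.92 over the settings. Over all genes, 308 were called higher; the count was 656 and 108 with pseudocounts of 0.1 and 5 FPKM, 472 after scaling to a sum of 1000000 and 450 when Paneth cell secretory genes were left out of that sum, 121 with a minimum of 10 FPKM and 99 with a 3-fold limit. Both of these scalings also raise every value, so that adding 1 FPKM weighs less. The 49 called lower became 110 and 23 with these pseudocounts, 30 with the minimum and 16 with the 3-fold limit. The median of genes above 10 FPKM was -0.02 as deposited and -0.07 to 0.07 under the scalings. No paired analysis was possible because each genotype has 1 library. Depth limits Krt80, Krt23 and Sprr1a most.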
